A study of Arabidopsis thaliana with 3 samples.

Results

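The loci described here are those of the mitochondrial genome of Arabidopsis thaliana, chosen as every gene identifier that starts with ATMG. They number 146 of the 33557 loci measured. RNA of whole seedlings, 11 days old, was sequenced in 3 groups. The first was the skip mutant held in salted MS liquid medium (200 mM NaCl) for 4 h, MS being a common plant culture medium. The second was wild type under the same salt treatment, and the third was wild type held in MS liquid medium without salt for 4 h. The product of SKIP (AT1G77180) belongs to the spliceosome and also acts in transcription with the Paf1 complex, and the title of the series names it in salt tolerance through alternative splicing. The labels give neither the skip allele nor the accession of the wild type, and untreated skip was not analysed here, so an effect of the genotype and a changed response to salt cannot be told apart. The authors merged the 2 replicates of a group into 1 value per locus, so replicate error is unknown for every difference below and p-values are not printed.

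The mitochondrial genome of plants encodes a small part of the machinery of respiration. It holds some core subunits of the NADH dehydrogenase (complex I), cytochrome b of complex III, subunits of cytochrome c oxidase (complex IV) and of the ATP synthase (complex V), proteins that attach heme to c-type cytochromes, and part of the organelle's ribosome. The remaining subunits are encoded in the nucleus and imported, so each complex is assembled from products of both genomes. Many open reading frames of unknown function lie between these genes. Mitochondrial transcripts are made by phage-type RNA polymerases and then spliced, edited and trimmed, and they mostly lack the long poly(A) tail of nuclear messengers. In Arabidopsis a large copy of the mitochondrial genome lies inserted in chromosome 2, and its loci are nearly identical in sequence to their mitochondrial counterparts.

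The values were read as FPKM, which divides fragments by the length of the transcript and the size of the library, so levels can be compared between loci per length. They come in 2 tables, salt-treated against untreated wild type and skip against wild type under salt, which were scaled separately. Salt-treated wild type stands in both, and the 2 comparisons therefore share that sample. Nuclear green-tissue markers were high. RBCS1A, the Rubisco small subunit, ranged between 8604 and 12449 FPKM, with 11183 FPKM in salt-treated skip against 8604 FPKM in salt-treated wild type. The light-harvesting genes were lower in skip, LHCB1.1 at 2434 against 4521 FPKM and LHCB1.3 at 5825 against 9353 FPKM. The chloroplast gene rbcL, for the Rubisco large subunit, was higher in skip, at 493 against 94.1 FPKM. It had 104 FPKM in salt-treated and 287 FPKM in untreated wild type. All 3 root markers were lower in salt-treated than in untreated wild type, at 8.36 against 35.4 FPKM for CASP1 and 1.96 against 12.8 FPKM for CASP2, both of the endodermis, and at 5.83 against 42.4 FPKM for the phosphate transporter gene PHT1;1. Under salt, CASP1 was at 6.83 FPKM in skip and 7.56 FPKM in wild type. In the same order CASP2 was at 1.24 and 1.77 FPKM and PHT1;1 at 6.77 and 5.28 FPKM. Pollen markers did not exceed 0.0495 FPKM and seed storage protein genes did not exceed 3.41 FPKM. SKIP was at 41.6 FPKM in salt-treated skip against 49.0 FPKM in salt-treated wild type. With the allele not stated, this level does not check the genotype. Nuclear genes of more than 5 FPKM in both columns were centred near 0, with a median log2 ratio of 0.01 for salt and -0.07 for skip. In bulk RNA of this kind, fewer cells or organelles and less RNA in each cannot be told apart.

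Of the 146 mitochondrial loci, 46 were listed at 0 in every column, 100 were above 0 in at least 1 column and 68 were above 0 in all. An exact 0 can be a failed estimate, so it is given as listed at 0. The annotation used here links 53 of the loci to a nuclear locus, and it is from these links that descriptions were taken. They assign 3 loci to complex I, 2 to complex III, 2 to complex IV, 5 to complex V, 4 to ribosomal proteins and 3 to cytochrome c maturation. A further 5 loci carry another description, 21 are described as an unknown protein, 8 are named only as the parent of a nuclear pseudogene, and 93 have no description in the reference used here. No locus could be assigned to ribosomal RNA, transfer RNA, the maturase or the transporter, since the identifiers are paired with no such name. The 93 loci without a description therefore mix known genes with open reading frames.

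Mitochondrial transcripts were a small share of the RNA measured, lowest in salt-treated wild type and highest in salt-treated skip. They summed to 309 FPKM in salt-treated wild type against 580 FPKM in untreated wild type, which is 0.0379% and 0.0681% of all FPKM in those columns. In the other table they summed to 1695 FPKM in salt-treated skip against 279 FPKM in salt-treated wild type, or 0.215% and 0.0379%. Most of these sums came from ATMG00020 and ATMG01390, which have no description here and together held between 73.3% and 82.1% of the mitochondrial FPKM in each column. Without them the sums were 57.0 FPKM in salt-treated and 155 FPKM in untreated wild type, and 303 FPKM in salt-treated skip and 51.6 FPKM in salt-treated wild type. The order of the groups was the same with and without these loci. The remaining loci were low, so that the median locus above 0 stood at 0.266 FPKM in salt-treated and 0.600 FPKM in untreated wild type, and at 1.09 FPKM in salt-treated skip and 0.240 FPKM in salt-treated wild type. At least 1 FPKM was reached by 17 loci in salt-treated and 34 in untreated wild type, and by 46 in salt-treated skip and 14 in salt-treated wild type.

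The depth behind such values was estimated from the steps between low values of nuclear genes. At 1 FPKM, a transcript of 1 kb would rest on about 35.8 to 48.5 fragments depending on the column, and at 0.1 FPKM on about 3.58 to 4.85. Both figures are estimates of counting error alone. A shorter transcript rests on fewer fragments at the same FPKM. By gene name only, the reference used here gives coding lengths of 225 bases for subunit 9 of the ATP synthase and 357 bases for subunit 3 of complex I. Ratios of loci well below 1 FPKM, and of short loci at higher levels, therefore rest on few fragments. Such loci are described with their level.

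Most mitochondrial loci were lower in salt-treated than in untreated wild type. A ratio could be formed for the 71 loci above 0 in both columns, and a locus counts as higher or lower here when it differs by at least 2-fold, a rule of size and not a test. Salt-treated wild type was lower than untreated wild type at 46 of the 71 loci, higher at 6 and within 2-fold at 19. Among all 23502 genes with a ratio, 11.5% were lower and 13.4% were higher by the same rule. The median mitochondrial log2 ratio was -1.24, with quartiles of -1.56 and -0.66, which is a level 2.37-fold lower in salt-treated than in untreated wild type, and 64 of the 71 loci were below 0. Over all genes the median was -0.02. The 3 root markers were lower in the same comparison, and a part of tissue makeup in the mitochondrial values was not tested.

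These counts depend on the level. Among the 32 loci with a mean of at least 1 FPKM over the 4 columns, 24 were lower with salt and 0 were higher, beside 7.9% lower and 12% higher among nuclear genes of that level. Among the 32 loci between 0.1 and 1 FPKM, 18 were lower and 5 higher, beside 28.2% and 20.8% of nuclear genes. Below 0.1 FPKM, 4 of 7 loci were lower and 1 was higher, beside 25.8% and 22.4% of nuclear genes. All 6 loci that were higher with salt thus had means under 1 FPKM.

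**Figure D1:**
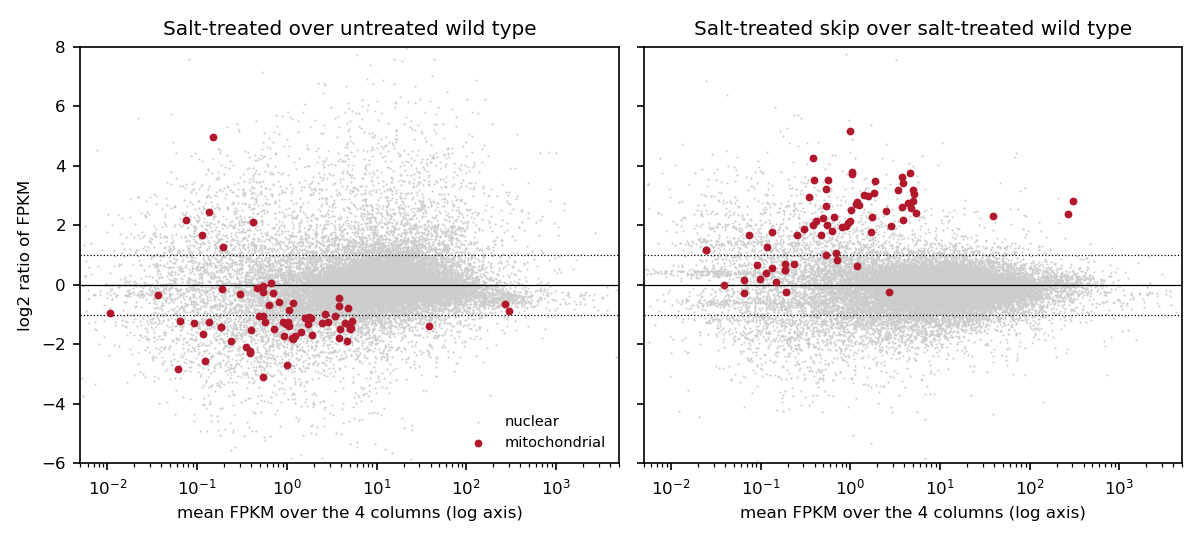
Log2 ratio of FPKM (vertical axis) against the mean FPKM over the 4 columns (horizontal log axis), for nuclear genes in grey and mitochondrial loci in red, with salt-treated over untreated wild type on the left and salt-treated skip over salt-treated wild type on the right. Dotted lines mark 2-fold. The mitochondrial loci with a mean of at least 1 FPKM lie below 0 on the left. On the right 30 of 32 lie above the upper dotted line. The mean includes salt-treated skip, through which some of these loci reached 1 FPKM. ATMG00040, at -8.72 on the left and 8.73 on the right, and on the right ATMG00280 at 12.83 and ATMG00310 at 17.79 lie outside the axes, and ATMG00040 and ATMG00280 were named after their values had been seen.

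Under salt, most mitochondrial loci were higher in skip than in wild type. Salt-treated skip was at least 2-fold higher than salt-treated wild type at 59 of the 75 loci with a ratio, lower at 0 and within 2-fold at 16. Among all 23790 genes with a ratio, 6.66% were higher and 9.77% were lower. The median mitochondrial log2 ratio was 2.24, which is a level 4.73-fold higher in skip, while the median over all genes was -0.09. Of the 75 loci, 44 were at least 4-fold and 19 at least 8-fold higher, beside 2.32% and 0.778% of all genes. Both counts include ATMG00040, ATMG00280 and ATMG00310, whose ratios divide by values close to 0. They had 0.000419, 6.66e-05 and 7.43e-07 FPKM in salt-treated wild type, and 0.178, 0.486 and 0.168 FPKM in salt-treated skip. Of the 32 loci with a mean of at least 1 FPKM, 30 were higher in skip and 0 lower, beside 3.11% higher and 7.53% lower among nuclear genes of that level. Between 0.1 and 1 FPKM 24 of 33 were higher and 0 lower, beside 17.3% and 21.4% of nuclear genes. Below 0.1 FPKM 5 of 10 were higher and 0 lower, beside 28.1% and 18.9%. These means include salt-treated skip, so some loci passed 1 FPKM only through their level in that group. Of the 14 loci of at least 1 FPKM in both columns of the comparison, 13 were higher in skip and 0 lower.

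Only 3 of the 75 loci had a lower level in skip than in wild type, each by less than 2-fold. The best expressed of them was ATMG01080, which encodes subunit 9 of the ATP synthase. ATMG00610, described as a putative membrane lipoprotein, had 0.0393 FPKM in salt-treated skip and 0.0471 FPKM in salt-treated wild type. ATMG01210, the parent of a nuclear pseudogene, had 0.191 and 0.227 FPKM in the same order. The last 2 were named after their values had been seen.

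**Figure D2:**
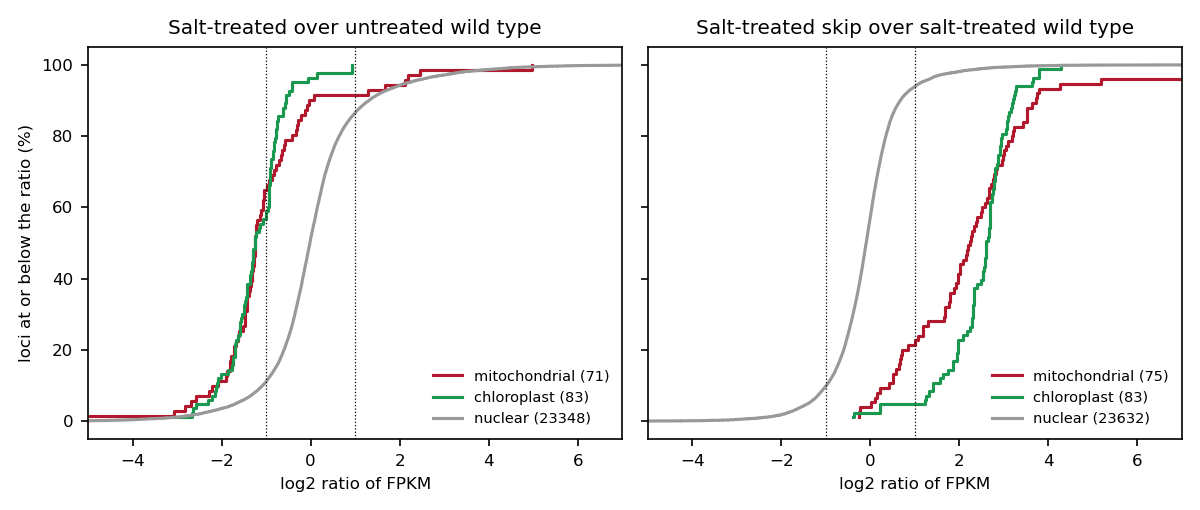
Percentage of loci (vertical axis) at or below each log2 ratio of FPKM (horizontal axis), for mitochondrial, chloroplast and nuclear loci above 0 in both columns, with their number in the legend. The mitochondrial curve stands left of the nuclear curve for salt-treated over untreated wild type, with medians of -1.24 and -0.02, and right of it for salt-treated skip over salt-treated wild type, with medians of 2.24 and -0.09. A few loci in the tails lie beyond the axis and are not drawn.

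The genome of the other organelle gave medians on the same side. Chloroplast loci had a median log2 ratio of -1.25 for salt, with 48 of 83 lower and 0 higher, and of 2.60 for skip, with 79 of 83 higher and 0 lower. The difference between the organelles was not tested. As values of the same columns that bear on the composition of the RNA, 4 nuclear loci for ribosomal RNA also differed. AT2G01020 was at 4530 FPKM in salt-treated against 9735 FPKM in untreated wild type, and at 4954 FPKM in salt-treated skip against 4099 FPKM in salt-treated wild type. AT2G01010 was at 2587 FPKM in salt-treated against 13905 FPKM in untreated wild type, and was listed at 0 in salt-treated skip against 2341 FPKM in salt-treated wild type. AT3G41768 had the opposite order for salt, at 5092 FPKM in salt-treated wild type and listed at 0 in untreated wild type, and was listed at 0 in salt-treated skip against 4608 FPKM in salt-treated wild type. AT3G41979 had values close to those of AT2G01020, with 4529 FPKM in salt-treated against 9761 FPKM in untreated wild type, and 4947 FPKM in salt-treated skip against 4099 FPKM in salt-treated wild type. With salt all but AT3G41768 were thus lower. In skip AT2G01020 and AT3G41979 stood above wild type and the other loci were listed at 0. The sources used here do not say how fragments matching more than 1 locus were assigned. Single loci therefore do not give the direction of ribosomal RNA as a whole. The sources used here do not give how RNA was selected for the libraries, and the part of such selection in the organelle values was not tested.

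Complex I feeds electrons from NADH into the respiratory chain, and its 3 described loci did not move alike with salt. ATMG01320, described as NADH dehydrogenase 2B, had 0.469 FPKM in salt-treated against 1.42 FPKM in untreated wild type, a log2 ratio of -1.60. ATMG01275, described as NADH dehydrogenase 1A, had 0.478 against 0.713 FPKM in the same groups, a log2 ratio of -0.58 that stayed within 2-fold. ATMG00990, which encodes subunit 3, was the 1 described locus of the complex that was higher with salt, at 0.274 FPKM in salt-treated and 0.0634 FPKM in untreated wild type, a log2 ratio of 2.11. Its level in untreated wild type corresponds to fewer fragments than the 4.01 estimated for a transcript of 1 kb at 0.1 FPKM in that column. In the comparison under salt all 3 described loci were higher in skip. The reference used here also lists nad4, nad4L, nad5, nad6, nad7 and nad9 for this complex. The identifiers are not paired with these names, so the 3 loci do not stand for the whole complex. ATMG01320 had 3.42 FPKM in salt-treated skip against 0.424 FPKM in salt-treated wild type (log2 ratio 3.01). ATMG00990 had 1.09 against 0.248 FPKM (log2 ratio 2.14), and ATMG01275 had 1.65 against 0.432 FPKM (log2 ratio 1.93). NADH dehydrogenase 1 and 2 are joined from separately transcribed pieces by trans-splicing in plants, so ATMG01275 and ATMG01320 each stand for a piece of such a gene.

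Complex III passes electrons from ubiquinol to cytochrome c, and apocytochrome b is its one subunit from the mitochondrial genome. ATMG00220, the apocytochrome b locus, had 0.563 FPKM in salt-treated against 1.23 FPKM in untreated wild type, a log2 ratio of -1.13. In salt-treated skip it had 4.03 FPKM against 0.510 FPKM in salt-treated wild type (log2 ratio 2.98). The gene was thus more than 2-fold lower with salt and nearly 8-fold higher in skip. ATMG00590, described as a cytochrome b/b6 protein, was far lower in level. It had 0.0965 FPKM in salt-treated against 0.229 FPKM in untreated wild type (log2 ratio -1.25, or -0.75 with 0.1 added to each FPKM), and 0.130 FPKM in salt-treated skip against 0.0873 FPKM in salt-treated wild type (log2 ratio 0.57), which is within 2-fold.

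Complex IV reduces oxygen to water. ATMG00730, its subunit 3, had 0.434 FPKM in salt-treated against 1.03 FPKM in untreated wild type, and 2.23 FPKM in salt-treated skip against 0.393 FPKM in salt-treated wild type. Its log2 ratios were -1.24 for salt and 2.51 for skip, both past 2-fold. ATMG01280, described as cytochrome c oxidase II-like, showed almost no difference with salt, at 0.321 FPKM in salt-treated and 0.342 FPKM in untreated wild type. It was higher in skip, at 0.925 FPKM in salt-treated skip against 0.290 FPKM in salt-treated wild type (log2 ratio 1.67).

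Complex V makes ATP from the proton gradient, and its loci held the highest level among the described ones in each group, ATMG01190 in skip and ATMG01080 in wild type. With salt 4 of its 5 described loci were lower, and the fifth lay just inside 2-fold. ATMG01190, the alpha subunit of the catalytic head, had 1.69 FPKM in salt-treated against 4.12 FPKM in untreated wild type, a log2 ratio of -1.29. The other lower loci were ATMG00480 for subunit 8 (log2 ratio -1.31), ATMG01090, described as ATP synthase 9 (-1.24), and ATMG00410 for subunit 6 of the proton channel (-1.08, or -0.99 with 0.1 added to each FPKM). ATMG01080, the subunit 9 that forms the rotating ring of the channel, had 2.32 FPKM in salt-treated against 4.58 FPKM in untreated wild type, a log2 ratio of -0.98.

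The described loci of complex V were less alike in the comparison of genotypes. ATMG01190 had 10.3 FPKM in salt-treated skip against 1.53 FPKM in salt-treated wild type, the largest log2 ratio of these loci at 2.75. ATMG00410 followed with 3.68 against 0.764 FPKM (log2 ratio 2.27), and then ATMG01090 with 1.64 against 0.417 FPKM (1.97). ATMG00480 had 2.85 against 0.829 FPKM, a log2 ratio of 1.78. All 4 of these loci were thus more than 3-fold higher in skip. ATMG01080 stood apart, with 1.78 FPKM in salt-treated skip and 2.10 FPKM in salt-treated wild type (log2 ratio -0.24). Its copy on chromosome 2, AT2G07671, was at 20.8 FPKM in salt-treated skip against 8.26 FPKM in salt-treated wild type, and the sum of both loci was 22.5 against 10.4 FPKM, a log2 ratio of 1.12. The sources used here do not say how fragments shared by both copies were assigned.

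**Figure D3:**
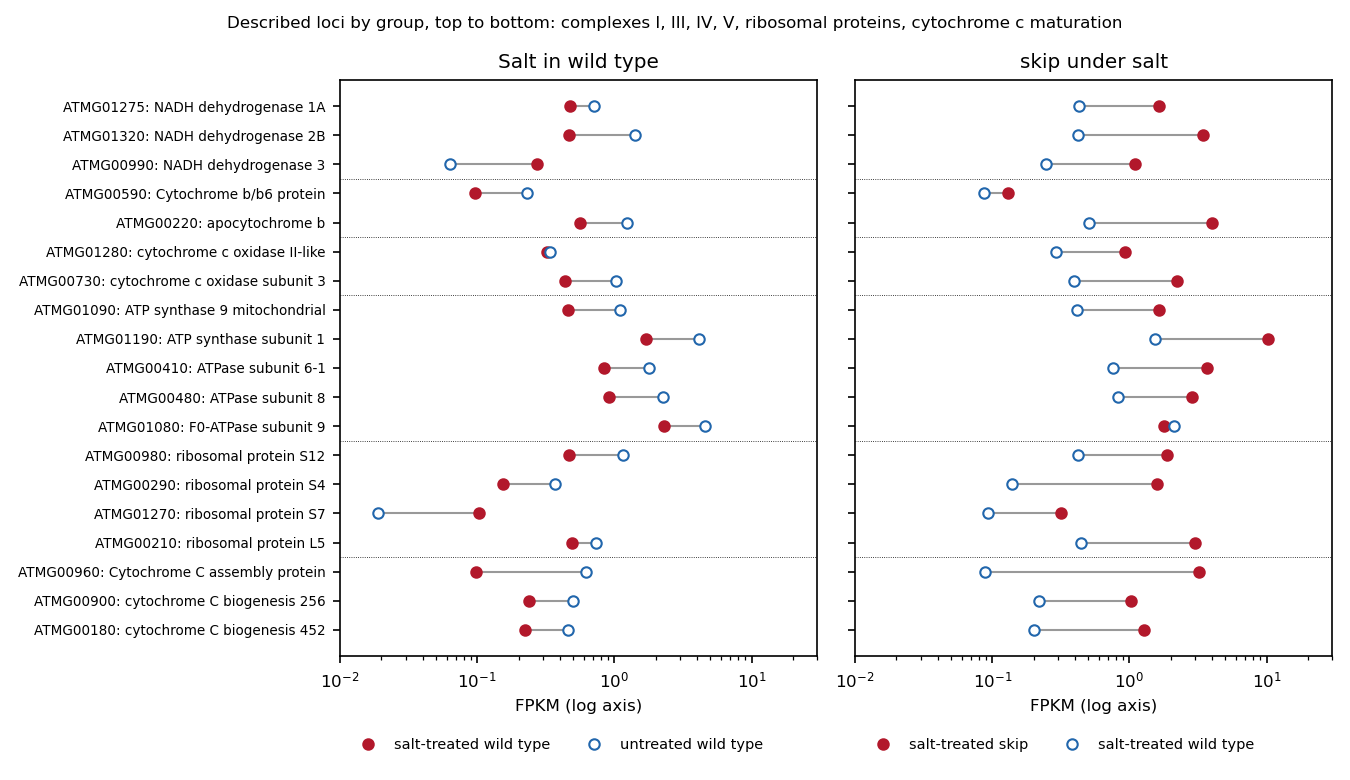
FPKM on a log axis for the 19 loci described as part of a respiratory complex, the ribosome or cytochrome c maturation, with 1 row per locus and a grey line joining the groups of a comparison. On the left, salt-treated wild type (filled) lies below untreated wild type (open) at all but ATMG00990 and ATMG01270. On the right, salt-treated skip (filled) lies above salt-treated wild type (open) at all but ATMG01080.

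The mitochondrial ribosome translates these messengers. ATMG00980, ribosomal protein S12, had 0.467 FPKM in salt-treated against 1.16 FPKM in untreated wild type, and ATMG00290, ribosomal protein S4, had 0.155 against 0.366 FPKM. Their log2 ratios were -1.32 and -1.24. ATMG00210, ribosomal protein L5, was within 2-fold at -0.60. ATMG01270, ribosomal protein S7, was higher with salt, at 0.104 FPKM in salt-treated and 0.0189 FPKM in untreated wild type, again levels that rest on very few fragments. Its log2 ratio of 2.45 fell within 2-fold when 0.1 was added to each FPKM (0.78) and when it was summed with its nuclear copy (0.15). With 0.1 added, ATMG00290 was within 2-fold for salt as well, at -0.87. All 4 were higher in skip. The largest difference was that of ATMG00290, with 1.59 FPKM in salt-treated skip against 0.140 FPKM in salt-treated wild type (log2 ratio 3.51). ATMG00210 had 3.03 against 0.442 FPKM (2.78), ATMG00980 had 1.89 against 0.423 FPKM (2.16) and ATMG01270 had 0.319 against 0.0937 FPKM (1.77).

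Cytochrome c maturation proteins carry heme to cytochrome c and cytochrome c1 and attach it there. All 3 described loci were lower with salt and all 3 were higher in skip. ATMG00960, described as a cytochrome c assembly protein, had the largest ratios among the 19 described loci in both comparisons. It had 0.0978 FPKM in salt-treated against 0.626 FPKM in untreated wild type (log2 ratio -2.68), and 3.21 FPKM in salt-treated skip against 0.0885 FPKM in salt-treated wild type (log2 ratio 5.18). The level in salt-treated wild type that both ratios share was near 4 fragments for a transcript of 1 kb. ATMG00900, a cytochrome c biogenesis locus (ccmC), had log2 ratios of -1.04 for salt and 2.24 for skip. ATMG00180, another such locus (ccmFC), had log2 ratios of -1.05 and 2.67 in the same comparisons. The salt ratios of these last loci fell within 2-fold when 0.1 was added to each FPKM (-0.81 for ATMG00900 and -0.80 for ATMG00180) and when the nuclear copies were summed in (-0.87 and -0.78).

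Loci without a functional description mostly lay on the same sides. Of the 37 without any description that had a ratio for salt, 24 were lower and 2 higher, with a median log2 ratio of -1.27. Of the 41 with a ratio for skip, 34 were higher, 0 were lower and the median was 2.38. Among those described as an unknown protein, 5 of 9 were lower with salt (median -1.43) and 6 of 10 were higher in skip, with a median of 1.42 that was below the 2.24 of all mitochondrial loci. Of the 3 with another description and a ratio, 3 were lower with salt and 2 were higher in skip. The parents of nuclear pseudogenes had 2 of 3 higher and 1 lower with salt, and 0 of 2 past 2-fold in skip. These parents were all under 0.3 FPKM.

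ATMG00020 and ATMG01390, the most abundant loci, were past 2-fold in 1 comparison only. ATMG00020 had 119 FPKM in salt-treated against 218 FPKM in untreated wild type (log2 ratio -0.88), and 768 FPKM in salt-treated skip against 108 FPKM in salt-treated wild type (log2 ratio 2.84). ATMG01390 had 133 against 207 FPKM for salt (-0.64) and 624 against 120 FPKM for skip (2.38). ATMG00030 came next in every column, with 17.2 FPKM in salt-treated against 44.5 FPKM in untreated wild type (-1.37), and 78.2 FPKM in salt-treated skip against 15.6 FPKM in salt-treated wild type (2.33). Each of these 3 loci was lower in salt-treated than in untreated wild type and at least 5-fold higher in skip. Next in skip came ATMG00510 with 12.9 FPKM in salt-treated skip against 1.42 FPKM in salt-treated wild type, and ATMG00080 with 12.8 against 1.56 FPKM.

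Among loci that reached 5 FPKM in a column and carry no functional description, ATMG01360 had the largest ratio in skip, with 12.8 FPKM in salt-treated skip against 0.950 FPKM in salt-treated wild type (log2 ratio 3.75). ATMG01120 followed with 10.2 against 0.827 FPKM (3.63), ATMG00513 with 5.05 against 0.444 FPKM (3.51), ATMG00580 with 10.5 against 0.974 FPKM (3.43) and ATMG00090 with 9.27 against 1.01 FPKM (3.20). All of these loci reached 5 FPKM only in salt-treated skip, the group in which they are high. These loci were all lower in salt-treated than in untreated wild type, with log2 ratios of -1.89, -1.80, -1.68, -1.48 and -1.06 in the same order. The last of these was at -0.996 with 0.1 added to each FPKM. The loci were ranked by a ratio over salt-treated wild type. The same sample enters the salt ratio, so a low salt ratio is partly set by that ranking. Besides ATMG00020, ATMG00030 and ATMG01390, the only locus with a salt ratio and 5 FPKM in a column of the salt comparison was ATMG00640. It had 2.39 FPKM in salt-treated against 5.51 FPKM in untreated wild type (-1.21). The reference used here gives none of these loci a name.

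Besides ATMG00990 and ATMG01270, 4 loci were higher with salt and are named after their values had been seen. ATMG00300 had 0.133 FPKM in salt-treated against 0.0419 FPKM in untreated wild type, ATMG00940 had 0.0597 against 0.0132 FPKM, ATMG01210 had 0.250 against 0.103 FPKM, and ATMG01330 had 0.205 against 0.00652 FPKM. In salt-treated skip, 3 of these 4 loci were within 2-fold of salt-treated wild type. ATMG00940 was higher, with a log2 ratio of 1.67.

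Some loci could not be given a ratio because they were listed at 0 in 1 column. For salt, 11 were above 0 only in salt-treated wild type, with a median of 0.0552 FPKM and none above 0.211 FPKM, and 12 were above 0 only in untreated wild type, with a median of 0.0917 FPKM. Most of these levels correspond to a few fragments. The exceptions were ATMG01380, at 18.3 FPKM in untreated wild type and listed at 0 in both other groups, and ATMG01130, at 1.97 FPKM in untreated wild type and listed at 0 in salt-treated wild type. For skip, 11 were above 0 only in salt-treated skip, with a median of 0.0867 FPKM, and 7 only in salt-treated wild type, with a median of 0.0298 FPKM and none above 0.101 FPKM. ATMG01130 was at 7.26 FPKM in salt-treated skip and ATMG01350 at 0.648 FPKM, both listed at 0 in salt-treated wild type.

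The values of salt-treated wild type differed between the tables by a single factor of 1.105 at all 82 mitochondrial loci above 0, to within 0.1%. This allowed salt-treated skip to be set beside untreated wild type, across tables that were normalized separately. Of 73 loci above 0 in both, salt-treated skip was above untreated wild type at 62, at least 2-fold higher at 47 and at least 2-fold lower at 4. Over all 23332 genes in the same comparison, 14.2% were higher and 16% lower. The median mitochondrial log2 ratio was 1.47, a 2.77-fold higher level in salt-treated skip, and the median of all genes was -0.07. For ATMG00020 the levels on the scale of the first table were 849 FPKM in salt-treated skip, 119 FPKM in salt-treated wild type and 218 FPKM in untreated wild type. Most mitochondrial loci thus stood above the untreated wild type level in salt-treated skip and below it in salt-treated wild type. The 4 loci at least 2-fold lower were ATMG00610, ATMG00970, ATMG01080 and ATMG01370, at 0.359, 0.439, 0.430 and 0.446 of the untreated wild type level, and ATMG00610, ATMG00970 and ATMG01370 were named after their values had been seen. With linked nuclear loci summed, each table on its own scale, ATMG01080 had 22.5 FPKM in salt-treated skip and 21.5 FPKM in untreated wild type. In the same order ATMG00970 had 0.745 and 0.494 FPKM, and ATMG00610 had 0.369 and 0.619 FPKM. The factor of 1.105 would raise the skip sums further. Only the sum of ATMG00610 was thus lower in skip, and ATMG01370 has no linked nuclear locus.

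Near-identical nuclear copies limit what the level of a single mitochondrial locus means. In the RefSeq genome, whose mitochondrial sequence is not that of the authors' build, 70.5% of the 50-base words of the mitochondrial genome also occurred in a nuclear chromosome, and 70.4% occurred in chromosome 2. The share was 0.319% for the chloroplast genome. Of 33 mitochondrial protein genes in that genome, 22 had at least 80% of their coding words in the nucleus, and the median over all 33 was 96.5%. Apocytochrome b, atp1, atp8, atp9, cox3, ccmC, rps4, rps7, rps12 and rpl5 had 100% there. The genes cox1, nad9, atp4, ccmB and nad4L had 0%, but their identifiers in the tables are not paired with these names.

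**Figure D4:**
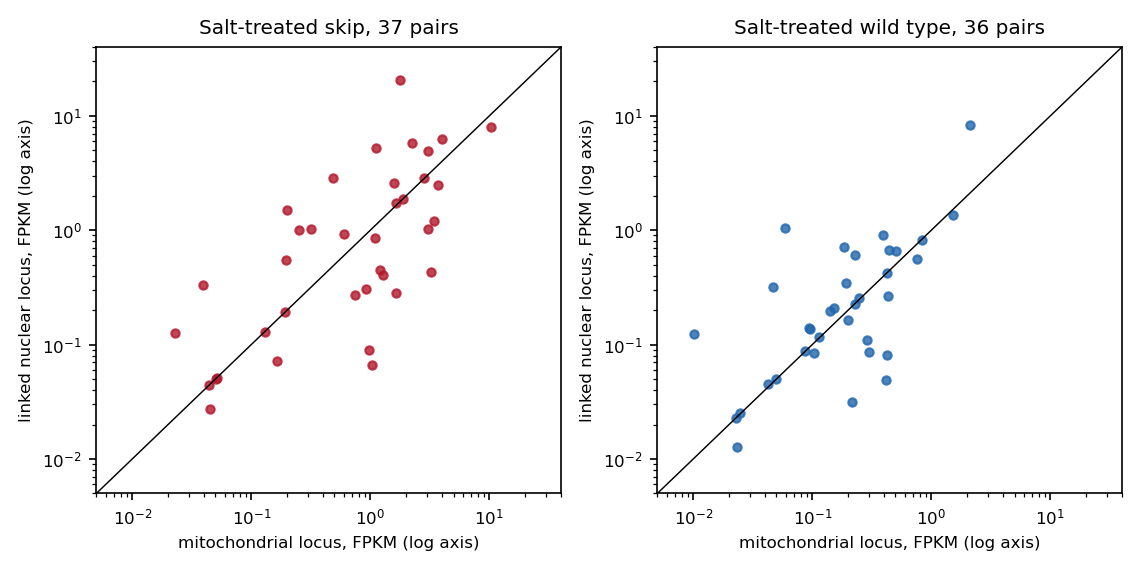
FPKM of the nuclear locus linked by the annotation (vertical log axis) against FPKM of its mitochondrial locus (horizontal log axis), 1 point per pair above 0 in both, for salt-treated skip on the left and salt-treated wild type of the same table on the right. The line marks equal levels. In salt-treated skip 16 of 37 pairs were within 2-fold of equality, and the point highest above the line among the abundant pairs is ATMG01080 with AT2G07671, at 1.78 and 20.8 FPKM.

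The annotation joins 53 mitochondrial loci with 55 nuclear loci in 55 pairs. In 6 pairs both members had the same value in all 4 columns to within 0.1%, as for ATMG00980 and AT2G07675, so for these a fragment cannot be assigned to either genome. In salt-treated skip, 15 of the 37 pairs above 0 were higher at the nuclear locus, 15 were lower, and the rest were equal to within 0.1%. The medians of the linked nuclear loci, -0.67 for salt and 1.73 for skip, lay on the same sides of 0 as those of the mitochondrial loci, but single pairs differed. ATMG00900 was at -1.04 for salt and its copy AT2G07681 at 2.72, and ATMG01270 was at 2.45 and its copy AT2G07696 at -0.47. With salt 17 of 38 linked nuclear loci were lower and 3 higher, and in skip 27 of 39 were higher and 1 lower. Of those with a mean between 0.1 and 1 FPKM, 8 of 21 were lower with salt, beside 28.2% of nuclear genes of that level, and 13 of 21 were higher in skip, beside 17.3%. Of those with a mean of at least 1 FPKM, 6 of 10 were lower with salt, beside 7.9%, and 10 of 10 were higher in skip, beside 3.11%. The mean includes salt-treated skip, so passing it is not independent of a higher level in that group. The copy of apocytochrome b, AT2G07727, had 0.728 FPKM in salt-treated against 2.19 FPKM in untreated wild type, and 6.27 FPKM in salt-treated skip against 0.659 FPKM in salt-treated wild type. A set defined by sequence alone, 122 nuclear loci with at least 80% of their words in the mitochondrial genome, had 27 of 65 lower with salt (41.5%, beside 11.5% of all genes) and 46 of 66 higher in skip (69.7%, beside 6.66%). The set was chosen for shared sequence, so its ratios may rest on the same fragments as the mitochondrial ones. They are not separate evidence on nuclear loci. Of these 122 loci, 120 lie on chromosome 2.

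Taking each mitochondrial locus together with its nuclear copies left the medians on the same sides of 0. With the FPKM of both summed, the 40 sums with a ratio for salt had a median log2 ratio of -0.99, with 20 lower and 2 higher, and the 41 sums for skip had a median of 2.14, with 31 higher and 2 lower. Loci with no linked nuclear locus gave medians of like size. For salt the median was -1.27 over 37 loci without a link and -1.23 over 34 loci with one. For skip it was 2.38 over 41 loci without a link, of which 34 were higher, and 2.08 over 34 loci with one, of which 25 were higher. The absence of a link in the annotation does not show that a locus has no nuclear copy.

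The nuclear genes whose products work with these loci mostly stayed within 2-fold in both comparisons. Of 55 nuclear genes for respiratory complexes and mitochondrial gene expression, 2 were higher with salt and 0 lower, with a median log2 ratio of -0.18, while in skip 1 was lower, 0 were higher and the median was 0.08. Among nuclear genes with a mean of at least 1 FPKM, 12% were higher and 7.9% lower with salt. In skip 3.11% of them were higher and 7.53% lower, so most nuclear genes of that level also stayed within 2-fold. Complex I subunits had 12 of 12 genes within 2-fold in both comparisons, with medians of -0.18 for salt and 0.01 for skip. CI51, which binds NADH, had 123 FPKM in salt-treated and 123 FPKM in untreated wild type, and 110 FPKM in salt-treated skip and 112 FPKM in salt-treated wild type. Complex V subunits had 9 of 9 within 2-fold, with medians of -0.36 and 0.09. The described mitochondrial loci of these complexes had medians of -0.58 and 2.14 (complex I) and -1.24 and 1.97 (complex V) in the same comparisons. Those loci stood at far lower levels than the nuclear genes, so their ratios rest on fewer fragments per length.

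For complex II, which is wholly nuclear in Arabidopsis, 4 of 5 genes were within 2-fold with salt, and the flavoprotein gene SDH1-1 was higher, at 199 FPKM in salt-treated against 88.5 FPKM in untreated wild type. All 5 were within 2-fold in skip, with a median of 0.03. Of 11 genes for complex III and cytochrome c, 1 was higher with salt. This was AT5G25450, a low-level gene at 3.99 FPKM in salt-treated against 1.26 FPKM in untreated wild type. None of the 11 was past 2-fold in skip, where the median was 0.08. Of 10 genes for complex IV and its assembly, 0 were past 2-fold with salt (median -0.27), and AT5G61310 was lower in skip, at 8.28 FPKM in salt-treated skip against 18.3 FPKM in salt-treated wild type. The median of that list in skip was -0.10.

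The 8 nuclear genes for mitochondrial gene expression were all within 2-fold in both comparisons, with medians of 0.02 for salt and 0.40 for skip. MGP3 (AT1G68990), a phage-type RNA polymerase of mitochondria, had 8.23 FPKM in salt-treated and 8.399 FPKM in untreated wild type, and 13.3 FPKM in salt-treated skip and 7.45 FPKM in salt-treated wild type (log2 ratio 0.84). AT1G74350, for which a role as a maturase-type splicing factor of mitochondria is known, had the list's highest log2 ratio for skip at 0.91, with 1.88 FPKM in salt-treated skip. AT5G14580, a polynucleotide phosphorylase that trims and degrades mitochondrial RNA, had 3.43 FPKM in salt-treated and 6.14 FPKM in untreated wild type, the list's lowest log2 ratio for salt at -0.84. None of these differences reached 2-fold, and their part in the mitochondrial levels was not tested.

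**Figure D5:**
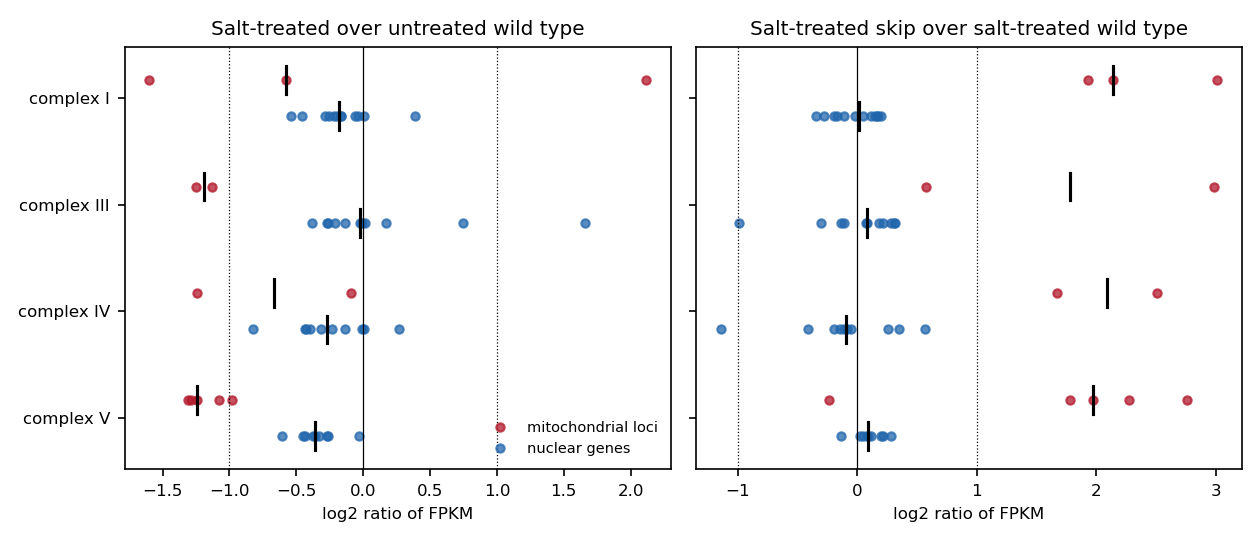
Log2 ratio of FPKM for each described mitochondrial locus (red) and each listed nuclear gene (blue) of 4 respiratory complexes, with salt-treated over untreated wild type on the left and salt-treated skip over salt-treated wild type on the right. Black bars mark medians and dotted lines mark 2-fold. On the right the mitochondrial loci lie above 1 except ATMG00590 at 0.57 and ATMG01080 at -0.24, while the nuclear genes lie between -1.14 and 0.56.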

How the data were processed

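RNA of whole seedlings was measured in 3 groups with 1 merged sample each. The deposited values were read as FPKM, a unit taken from their range and from the named tools, since the tables name no unit. TopHat, Cufflinks and the TAIR10 genome were used by the authors per the submitters' processing notes. Versions of these are not stated there. The sources used here give no library selection, strand setting, read length or method of merging the 2 replicates. The column headed WT-o was taken as WT-0.

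Log2 ratios of FPKM were formed within a table, without a pseudocount, for loci above 0 in both columns, with Python 3.11.15, pandas 2.3.3, numpy 2.4.6 and matplotlib 3.10.9. Higher or lower means at least 2-fold. The calculation was tested on simulated data. Descriptions, nuclear links and shared 50-base words came from the RefSeq annotation and genome TAIR10.1, which differs in name from the authors' build, so no coordinates or sequences are given. The depth was estimated from the steps between low values of nuclear genes, of which 53.2% to 70.6% lay within 0.15 of a whole step, against 30% by spacing alone, so no count test was run.

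Named are the loci with a functional description, those at 0 in 1 column, and of the others the 5 highest in salt-treated skip and the 5 largest ratios per direction among loci reaching 5 FPKM. The members, the nuclear lists (complexes I to V and mitochondrial gene expression) and the markers were chosen with earlier results of these data known. Alternatives covered pseudocounts, filters, scaling and choice of loci.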

Additional observations from a re-analysis of the deposited data

How the results depend on the processing

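No overall median, group median or single locus past 2-fold changed sign under any alternative run. Of the named loci within 2-fold, 3 changed sign. With linked nuclear loci summed, ATMG01080 was at 1.12 in skip (reported as -0.24) and ATMG00920 at 0.21 for salt (reported as -0.94). With equal nuclear sums, ATMG00540 was at -0.04 in skip (reported as 0.01). Adding 1 to each FPKM, which shrinks ratios of low loci, left 6 lower and 0 higher with salt (median -0.40) and 33 higher in skip (median 0.90). Adding 0.1 left 2 higher with salt, with a median of -0.96. Keeping loci of at least 1 FPKM in both columns left 11 of 17 lower and 0 higher with salt, and 13 of 14 higher in skip. At 5 FPKM this was 1 of 3 lower, 0 higher and a median of -0.88 for salt, and 3 of 3 higher in skip. With functional descriptions alone, 13 of 19 were lower and 2 higher with salt, and 17 of 19 were higher in skip. Descriptions came from the links to nuclear loci, so all of these 19 loci have a linked nuclear locus. Without a linked nuclear locus, 24 of 37 were lower and 2 higher with salt, and 34 of 41 were higher in skip. With a mean of at least 1 FPKM, an alternative chosen after seeing the data like those on nuclear links and identical loci, 24 of 32 were lower and 0 higher with salt, and 30 of 32 were higher in skip. That mean includes salt-treated skip. With linked nuclear loci summed, 2 of 82 were lower in skip. The smaller counts under filters follow from fewer loci. Centring on the median nuclear gene, equal nuclear sums and counting identical loci once kept every count within 1.5 times and every overall median on its side of 2-fold. Over the alternatives, group medians kept their side of 2-fold 50 times, fell within it 11 times and moved past it 1 time; for single loci this was 329, 46 and 1, and 32 of the 46 came from adding 1 to each FPKM. No paired analysis was possible because each group has 1 column in which the 2 replicates are merged, so no replicate could be left out either. A filter on locus length was not run, since the reference gives no length for these identifiers. For a transcript of 1 kb, depth limits loci under about 0.1 FPKM, where ratios rest on a few fragments. For shorter loci this limit lies at higher levels.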
